A study of Mus musculus with 59 samples.

Results

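The prefrontal cortex of Naa15 heterozygous mice that had received lithium (HT lithium) was compared with that of wild-type mice that had received vehicle (WT vehicle). The question was whether genes altered by the genotype lay back at the wild-type vehicle level under lithium or were left where the genotype had put them. The comparison took 20 of the 59 libraries of the study, 10 HT lithium (5 female, 5 male) and 10 WT vehicle (5 female, 5 male), chosen by their labels alone. All genes with a normalised count of 10 or more in at least 4 libraries were tested, which were 17891 of 18088. All mice were of the C57BL/6J strain, and HT means heterozygous for Naa15; the labels do not describe the allele. Pups took in lithium or fluoxetine through the mother's milk for 3 weeks, from postnatal day 3 to day 24, and tissue was taken on day 25. Further groups drawn on here were HT vehicle (5 female, 4 male), WT lithium (5 female, 5 male), and the males given fluoxetine (5 HT, 5 WT). The labels name no litters or mothers, so all p-values measure the spread between these libraries only, some of which may share a dam.

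NAA15 anchors the NatA complex to the ribosome, where NAA10, the catalytic subunit, adds an acetyl group to the first residue of many proteins as they are made. Lithium is a mood stabiliser that inhibits glycogen synthase kinase 3 and inositol monophosphatase, and through these acts on Wnt signalling and on the recycling of inositol. In the cortex, neuronal activity is followed by a fast rise of immediate early genes, and genes of this kind are read as a record of recent activity. RNA-seq of whole tissue gives 1 level per gene over all cell types, so fewer cells of a type and less RNA per cell cannot be told apart.

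The libraries of both sides were deep, but they differed as libraries. HT lithium libraries held 28.1 to 31.1 M reads and WT vehicle libraries 25.9 to 32.5 M (two-sided permutation test, p = 0.095), within 25.0 to 32.9 M over all 59. Mitochondrially encoded genes took 8.15% ± 1.01 (SD, n = 10) of the summed value in HT lithium and 5.97% ± 0.537 (SD, n = 10) in WT vehicle (permutation p = 3e-05). The slope of a library's log2 values on the GC content of the genes was taken in log2 units per 10 percentage points. It was -0.147 ± 0.0608 (SD) in HT lithium and 0.0902 ± 0.0579 in WT vehicle, with no overlap (permutation p = 2e-05, 100000 resamples). WT lithium libraries resembled the HT lithium ones on this measure (-0.240 to -0.0569), and HT vehicle libraries the WT vehicle ones (0.0580 to 0.191). The 5 HT fluoxetine female libraries, from mice given no lithium, also had slopes of -0.236 to -0.0581 and mitochondrial shares of 6.91% to 9.03%, within the ranges of the 20 lithium libraries; they stand on neither side here but enter the fit's estimate of spread. In HT lithium against WT vehicle, lithium and these library measures cannot be told apart. A smooth trend on GC content and gene length was therefore also removed from every library. Gene differences, counts of genes called and counts of list members were then computed again. This was not done for the counts of cell type markers, the chromosome 12 span, or the ranges and sums of normalised counts. For the differences of named genes from WT vehicle and for the counts of list members, the value after removal is given where it ended or made a call, turned a direction or moved a called value or count by over 1.5 times.

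**Figure D1:**
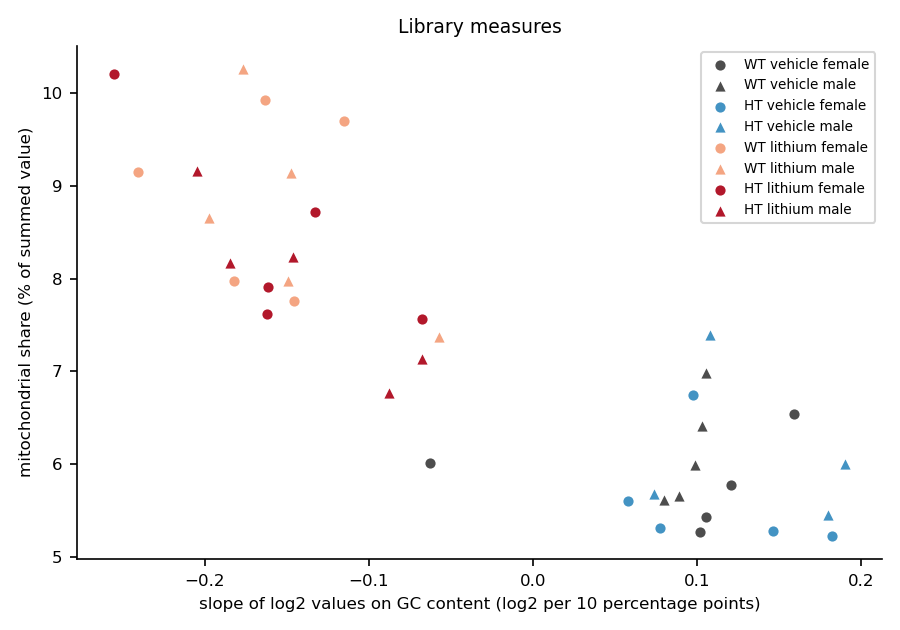
Each point is 1 library (circles and triangles by sex, colours by genotype and treatment), with the slope of log2 values on GC content on the horizontal axis and the mitochondrial share of the summed value, in percent, on the vertical axis. The HT fluoxetine females are not drawn. The lithium libraries of both genotypes lie at negative slopes, and the HT lithium libraries share no slope value with the WT vehicle ones.

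Naa15 itself (chromosome 3, 51415148 to 51476507, GRCm38) did not separate the genotypes. HT lithium libraries held 1587 to 1896 normalised counts (median 1710) and WT vehicle libraries 1476 to 1971 (median 1612). HT vehicle libraries ranged from 1510 to 1710 (median 1599) and WT lithium libraries from 1575 to 1957 (median 1763). All 4 ranges overlapped, so the gene's count does not check the genotype labels. The log2 difference between HT lithium and WT vehicle was 0.08 ± 0.040 (SE; limma, adjusted p = 0.074). Of 5 NatA subunits and partners, 1 was higher and none lower, beside 26.6% and 25.5% of all genes. The higher gene was Naa50, an acetyltransferase that binds the complex, by 0.16 (adjusted p = 0.000306). Naa50 was at -0.04 (adjusted p = 0.36) after the GC and length trend was removed. The catalytic subunit gene Naa10 was at -0.02 (adjusted p = 0.797), Naa16, the paralogue of Naa15, at 0.13 (adjusted p = 0.0559; called at adjusted p = 0.0293 after trend removal), and Hypk, which binds NatA, at 0.01 (adjusted p = 0.936).

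HT lithium and WT vehicle differed across a large part of the transcriptome. At an adjusted p under 0.05, 9308 of 17891 genes (52.0%) differed, with 4753 higher (26.6%) and 4555 lower (25.5%) in HT lithium. The differences were mostly small: their median size was 0.255 on the log2 scale, with 112 genes higher and 41 lower by 1 or more. In 1892 genes (10.6%) the 10 HT lithium and the 10 WT vehicle libraries did not overlap. WT lithium against the same WT vehicle libraries gave 9467 genes (52.9%), and HT lithium against HT vehicle 9054 (50.6%). Genotype gave few: 19 genes (0.106%) between HT vehicle and WT vehicle and 69 (0.386%) between HT lithium and WT lithium. The count of 69 moved by over 1.5 times without any 1 of 6 libraries. It was 36 without WT lithium male 2, 39 without WT lithium female 3, 44 without HT lithium female 3, 113 without WT lithium female 5, 118 without HT lithium male 4 and 185 without WT lithium male 3. The count of 19 was 10 without HT vehicle male 3, 11 without HT vehicle male 2 or WT vehicle male 5, 12 without HT vehicle female 5 and 29 without HT vehicle male 4. The genotype by lithium interaction, which tests whether the genotype difference changed under lithium, gave 0 genes (0%) in limma, with 1058 at an unadjusted p under 0.05, 0 in edgeR and 2 in DESeq2. After the GC and length trend was removed, HT lithium and WT vehicle differed in 6311 of 17880 genes, 2816 higher and 3495 lower. List counts after trend removal are to be read beside these numbers, not beside 26.6% and 25.5%.

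The 19 genes that differed by genotype under vehicle were then read in HT lithium against WT vehicle. A gene counted as left where HT lithium still differed from WT vehicle in the direction of the genotype difference. It counted as back where HT lithium no longer differed from WT vehicle, the 95% interval covered 0, and lithium had moved it the opposite way within the heterozygotes. By this rule 16 of the 19 were left, 3 were back (Gm14295, Gm14418 and Gm47572), and none had passed to the other side. Over all genes 26.6% were higher and 25.5% lower in HT lithium than in WT vehicle (52.0% either way). The WT vehicle libraries stand on both sides of the count of genes left, so it cannot be read as independent of the choice. The count of genes back likewise uses the HT vehicle libraries that chose the 19, and the same limit holds for it. With the GC and length trend removed, all 19 were called in the direction of the genotype difference, including the 3 that had been back. With the slopes of each library as covariates instead, 5 of the 19 were called. In 8 of the 19 genes the 10 HT lithium libraries shared no value with the 10 WT vehicle libraries, beside 10.6% of all genes. The same WT vehicle libraries had served to choose the 19.

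The comparison of HT lithium with WT lithium holds none of the vehicle libraries that chose the 19 genes. There, all 19 had the sign of the genotype difference, 12 of them passed the test in that direction and 0 in the other, against 0.386% of all genes called. The median difference of the 19, signed by the direction of choice, was 0.39 in HT lithium minus WT lithium. The count was 12 under every alternative in which all 19 genes were tested, and 12 or 13 when 1 of the 59 libraries was left out. Between HT lithium and HT vehicle, 2 of the 19 were called further in the direction of the genotype difference (Kif5b and Ablim1). Another 6 were called the other way, beside 50.6% of all genes called in either direction. Of these 6, Gm14419, Gm14296 and Kif5c still differed from WT vehicle. The HT vehicle libraries had also served to choose the 19. That choice favours differences the other way, so these counts cannot be read as independent of it. The choice of the 19 depended on single libraries: Ablim1, 9030624G23Rik, Gm49769, Gli1 and Gm14418 each lost the call between HT vehicle and WT vehicle without any 1 of 24 or more of the 59 libraries, with adjusted p from 0.0501 to 0.221. Itih3 lost it without any 1 of 12 libraries, Gm47572 and Hist1h1c of 7, Palm3 of 6, and Gm14295 and Kif5b of 1.

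**Figure D2:**
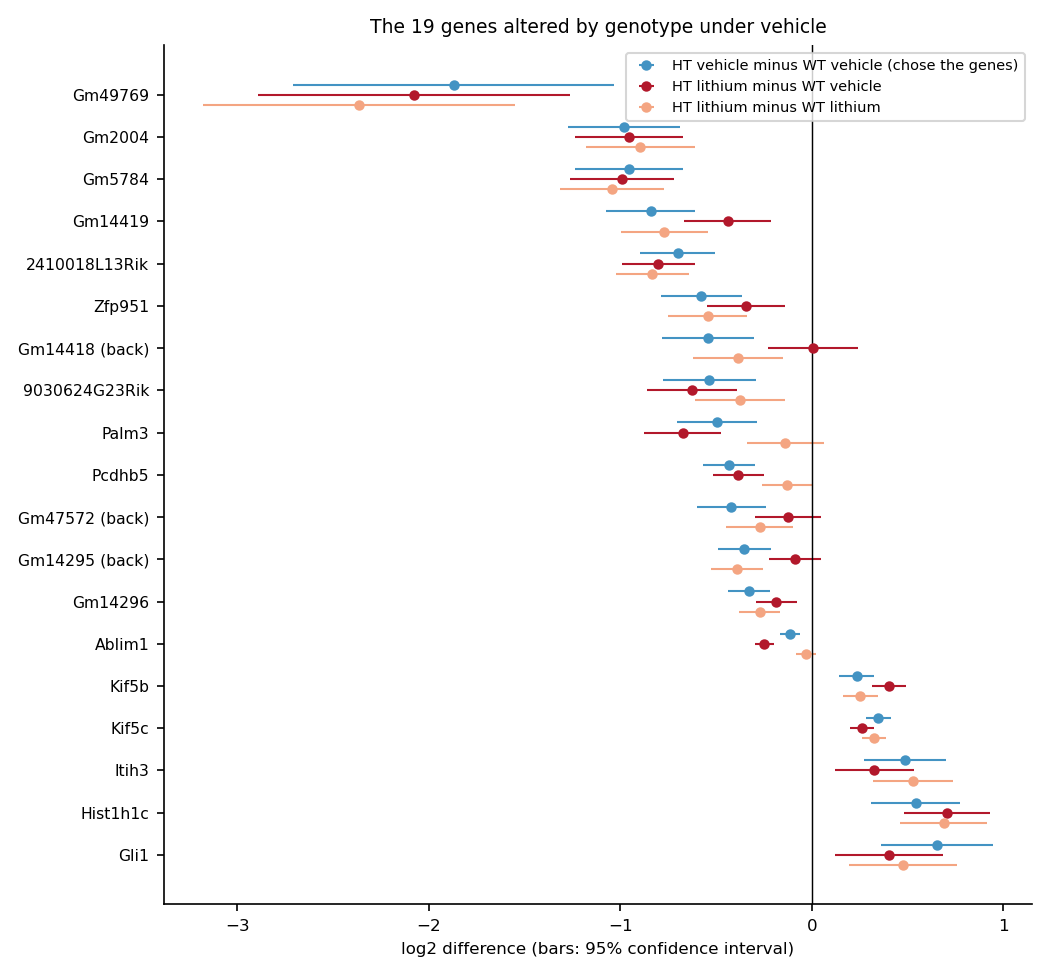
Log2 differences with 95% confidence intervals for the 19 genes altered by genotype under vehicle, in HT vehicle minus WT vehicle (blue, which chose them), HT lithium minus WT vehicle (red) and HT lithium minus WT lithium (orange). The 3 genes marked back have a red interval that covers 0, while their orange points stay below 0 with those of the other lower genes.

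Kif5c and Kif5b, which encode motor subunits of kinesin-1, stayed high in the heterozygotes under lithium. Kif5c encodes the neuronal heavy chain that carries cargo along axonal and dendritic microtubules (chromosome 2, 49619298 to 49774778). Its normalised count ran from 28209 to 34252 in HT lithium (median 32254) and from 24504 to 28186 in WT vehicle (median 27151). Every HT lithium library lay above every WT vehicle library. The difference was 0.26 ± 0.031 (SE, adjusted p = 5.86e-10), 19.9% higher. HT vehicle libraries lay higher still, at 31301 to 37789 (median 33889), and WT lithium libraries at 24544.5 to 27150 (median 25512) were as low as WT vehicle. Within the heterozygotes the lithium libraries were lower than the vehicle libraries by 0.09 (adjusted p = 0.0224), while HT lithium exceeded WT lithium by 0.33 (adjusted p = 5.8e-10), again with no overlap. In the fluoxetine males, which share no library with these groups, HT exceeded WT by 0.37 (adjusted p = 7.75e-07).

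Kif5b, the heavy chain found in all tissues, was also without overlap. HT lithium libraries held 6291 to 8185 counts (median 6845) and WT vehicle libraries 4803 to 5969 (median 5157), a difference of 0.40 ± 0.045 (SE, adjusted p = 9.29e-11). Here genotype and lithium lay in the same direction: HT vehicle was above WT vehicle by 0.23 (adjusted p = 0.0112), WT lithium above WT vehicle by 0.15 (adjusted p = 0.00452), and HT lithium above WT lithium by 0.25 (adjusted p = 0.00111). The remaining kinesin-1 genes went the other way, and of 7 chains tested 2 were higher and 5 lower, beside 26.6% and 25.5% of all genes. The median of the 7 was -0.22 beside 0.02 over all genes. The light chain gene Klc2 was lower by 0.31, but at -0.05 (adjusted p = 0.282) after removal of the GC and length trend, when 2 chains were higher and 1 lower.

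Linker histone genes formed the next group. Linker histones bind the DNA that enters and leaves the nucleosome; Hist1h1c encodes a variant transcribed mainly while DNA is replicated but also in resting cells, and H1f0 the replacement variant of non-dividing cells. Most replication-linked histone transcripts lack a poly(A) tail, so a poly(A) library counts only a part of them. The upstream sequences of Hist1h1c, its cluster neighbour Hist1h1e and H1f0 are shown because the genes of the first kind share a known element, AAACACA, the H1 box. They are the 250 bases before the gene start in RefSeq (GRCm38.p6; named there H1f2, H1f4 and H1f0), read 5′ to 3′ on the gene's strand, with AAACACA in capitals. Hist1h1c lies on the plus strand (window chr13:23738557-23738806), Hist1h1e on the minus strand (chr13:23622559-23622808) and H1f0 on the plus strand (chr15:79027962-79028211).
Hist1h1c: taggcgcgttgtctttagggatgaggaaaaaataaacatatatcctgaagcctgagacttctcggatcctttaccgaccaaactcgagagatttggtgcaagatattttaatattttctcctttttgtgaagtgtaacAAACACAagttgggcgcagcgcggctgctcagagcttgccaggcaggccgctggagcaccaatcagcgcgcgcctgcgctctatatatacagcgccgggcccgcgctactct
Hist1h1e: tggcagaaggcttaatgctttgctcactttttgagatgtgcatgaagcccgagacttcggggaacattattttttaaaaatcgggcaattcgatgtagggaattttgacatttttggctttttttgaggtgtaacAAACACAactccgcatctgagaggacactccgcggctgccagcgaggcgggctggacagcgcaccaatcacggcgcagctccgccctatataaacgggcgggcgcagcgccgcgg
H1f0: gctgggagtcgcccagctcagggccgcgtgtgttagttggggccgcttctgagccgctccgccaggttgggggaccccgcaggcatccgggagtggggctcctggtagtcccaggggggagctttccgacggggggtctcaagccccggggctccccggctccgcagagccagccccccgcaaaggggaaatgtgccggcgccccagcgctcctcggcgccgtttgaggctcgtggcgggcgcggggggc
The 7 letters were searched on both strands (reverse complement TGTGTTT). They began 112 bases before the start in Hist1h1c and 115 in Hist1h1e, and were not found in the H1f0 window. They were also in the windows of Hist1h1d (122) and Hist1h1b (117), so 4 of the 5 linker histone windows looked at held them, beside 6.25% of all 32851 windows. A match is a description of letters and shows no binding.

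Hist1h1c and H1f0 were both higher in HT lithium than in WT vehicle, and Hist1h1e did not pass the test. Hist1h1c ranged from 303.8 to 550.2 counts in HT lithium (median 433.9) and from 186 to 357 in WT vehicle (median 270.1). Of the 10 HT lithium libraries, 8 lay above the highest WT vehicle library, and the difference was 0.71 ± 0.113 (SE, adjusted p = 5.34e-07). WT lithium libraries, at 184 to 379 (median 276), covered nearly the same range as WT vehicle (0.02, adjusted p = 0.91). HT vehicle libraries, at 315 to 546 (median 367), were above WT vehicle by 0.54 (adjusted p = 0.0313), a call lost without any 1 of 7 libraries. HT lithium exceeded WT lithium by 0.69 (adjusted p = 0.00034). Hist1h1e was at -0.20 (adjusted p = 0.409); it was named after its values were seen, for its sequence.

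H1f0 ran from 2625 to 3226 in HT lithium (median 2879) and from 1989 to 2536 in WT vehicle (median 2262), without overlap. The difference was 0.35 ± 0.041 (SE, adjusted p = 4.1e-10). The genotype difference under vehicle, 0.17, did not pass the test (adjusted p = 0.105), while those under lithium (0.21, adjusted p = 0.00529) and in fluoxetine males (0.33, adjusted p = 0.00138) did. Lithium in wild types gave 0.14 (adjusted p = 0.00301). Among 21 linker and replacement histone genes, 13 were higher and 2 lower, beside 26.6% and 25.5% of all genes, with a median of 0.21. H3f3a, which encodes replacement histone H3.3, was higher by 0.42, and H2afz, which encodes H2A.Z, by 0.29. Once the trend was removed, 6 were higher and 3 lower, H3f3a was at 0.23, and H2afz, at 0.07 (adjusted p = 0.0972), was no longer called. Of 17 markers of dividing and immature cells, 7 were higher and 3 lower, beside the same shares of all genes. Their median was 0.38 (-0.04 in WT lithium minus WT vehicle). Their sums were 31044.5 to 43124 in HT lithium and 29958 to 39428.5 in WT vehicle, and their part in the histone differences was not tested.

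A stretch of chromosome 12 held several genes that split by genotype. 2410018L13Rik, a long non-coding RNA gene (22953997 to 23010284), ran from 43.6 to 81.3 counts in HT lithium (median 73.0) and from 101 to 145 in WT vehicle (median 121). No library of one side reached the other, and the difference was -0.80 ± 0.095 (SE, adjusted p = 4.36e-10). WT lithium libraries (109 to 147) lay with WT vehicle, and HT vehicle libraries (59.1 to 100.8) with HT lithium. The lithium difference did not pass the test in wild types (0.03, adjusted p = 0.808) or in heterozygotes (-0.10, adjusted p = 0.404).

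Gm5784, a long non-coding RNA gene at 19387809 to 19433081, showed the same order. It ran from 15.2 to 34.8 in HT lithium (median 28.2) and from 43.4 to 64.6 in WT vehicle (median 48.1), a difference of -0.99 ± 0.136 (SE, adjusted p = 1.81e-08). HT lithium was below WT lithium by 1.04 in log2 units (adjusted p = 2.63e-06), with no overlap in either comparison. Its neighbour Gm49769 (19434529 to 19435161) was near 0 in the heterozygotes, at 0 to 7.75 in HT lithium and 7.98 to 21.5 in WT vehicle, with a difference of -2.08 (adjusted p = 2.18e-05). The 1700030C10Rik entry at 20804381 to 20815779, listed as 1700030C10Rik_99759 because 2 identifiers carry the name, held 0 to 40.7 in HT lithium and 25.8 to 82.4 in WT vehicle. It differed by -2.23 (adjusted p = 1.54e-07) and from WT lithium by -2.39 (adjusted p = 1.43e-05). 9030624G23Rik, further along (24043202 to 24097246), was lower by 0.62 (adjusted p = 1.12e-05), but was at -0.37 (adjusted p = 0.117) against WT lithium.
Of 23 genes tested in the span from 19387809 to 24097246, 9 were lower and 5 higher in HT lithium than in WT vehicle, beside 25.5% and 26.6% of all genes. Against WT lithium 4 were lower and 0 higher, where 0.386% of all genes were called. The span's borders were the start of Gm5784 and the end of 9030624G23Rik, genes already called by genotype under vehicle. The span was thus drawn around called genes that are counted in it. Neither count can therefore be weighed against the share of all genes, and an excess in this span was not tested. How alike these genes are in sequence was not examined, so reads may have been split between copies.

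**Figure D3:**
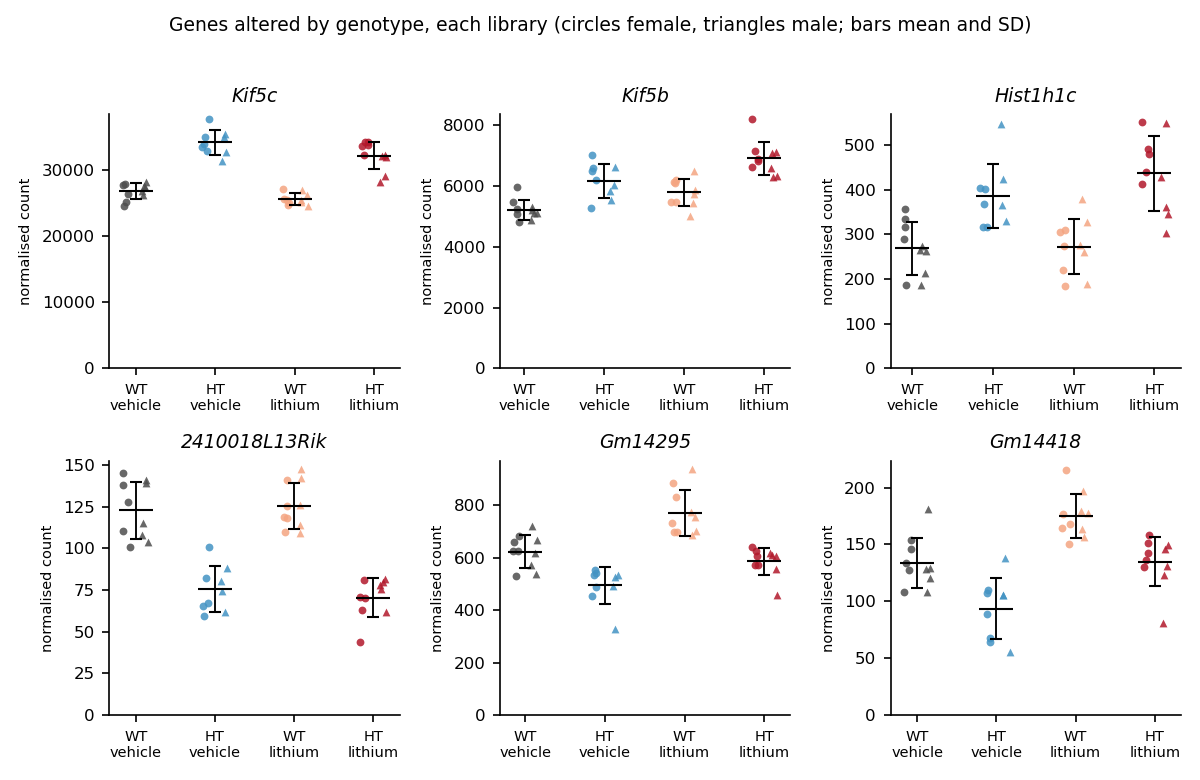
Normalised counts of 6 genes altered by genotype in each library (circles female, triangles male), with mean and SD per group. In Kif5c, Kif5b and 2410018L13Rik the HT lithium libraries share no value with WT vehicle, while in Gm14295 and Gm14418 they lie among the WT vehicle libraries and below most WT lithium libraries.

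The 3 genes counted as back were Gm14295 and Gm14418, which belong to a zinc finger cluster on chromosome 2, and Gm47572, an unclassified transcript on chromosome 10. Gm14295 (176798612 to 176811223) ran from 457 to 641 in HT lithium (median 607) and from 531 to 720 in WT vehicle (median 626), a difference of -0.09 ± 0.068 (SE, adjusted p = 0.284). HT vehicle libraries were at 327 to 552 (median 528) and WT lithium libraries at 688 to 940 (median 745). So lithium libraries were higher than vehicle libraries in both genotypes, by 0.26 in heterozygotes (adjusted p = 0.0013) and by 0.30 in wild types (adjusted p = 0.000152). Every HT lithium library lay below every WT lithium library, and the genotype difference under lithium, -0.39 (adjusted p = 0.000801), was close in size to that under vehicle, -0.35 (adjusted p = 0.0112). The interaction for this gene was -0.04 ± 0.097 (SE, adjusted p = 0.95).

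Gm14418 (177387124 to 177398320) ran from 81.3 to 158 in HT lithium (median 139) and from 108 to 181 in WT vehicle (median 129), a difference of 0.01 ± 0.117 (SE, adjusted p = 0.962). HT vehicle libraries were at 55.2 to 138 (median 105) and WT lithium libraries at 150 to 216 (median 173). Lithium libraries were higher by 0.55 in heterozygotes (adjusted p = 0.000128) and by 0.39 in wild types (adjusted p = 0.00388). The genotype difference under lithium was -0.39 (adjusted p = 0.103).

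Gm47572 ran from 45.0 to 78.4 in HT lithium (median 57.2) and from 50.8 to 75.1 in WT vehicle (median 62.3), a difference of -0.12 ± 0.087 (SE, adjusted p = 0.236). It was higher in HT lithium than in HT vehicle (39.0 to 51.5) by 0.30 (adjusted p = 0.00458), and WT lithium libraries were at 56.9 to 85.4. In data with the GC and length trend removed, the 3 differences from WT vehicle were -0.35 for Gm14295 (adjusted p = 0.000122), -0.41 for Gm14418 (adjusted p = 0.00565) and -0.29 for Gm47572 (adjusted p = 0.00529).

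The proteins of the zinc finger cluster are KRAB zinc finger factors, many of them near-identical copies, so reads assigned to any 1 of them are uncertain. Of 21 members tested, 8 were higher and 6 lower in HT lithium than in WT vehicle, with a median of 0.09, beside 26.6% higher and 25.5% lower over all genes. Against WT vehicle, WT lithium had 13 higher and 0 lower, beside 52.9% of all genes called either way. HT vehicle had 0 higher and 5 lower against WT vehicle, beside 0.106% of all genes called. These comparisons share the WT vehicle libraries. Gm2004 (176141591 to 176149825) ran from 19.4 to 60.1 in HT lithium (median 51.2) and from 67.4 to 108 in WT vehicle (median 81.1). The ranges did not overlap, and the difference was -0.95 ± 0.142 (SE, adjusted p = 1.11e-07), with 0.02 (adjusted p = 0.902) between HT lithium and HT vehicle. Gm14419 was lower by 0.44 (adjusted p = 0.000955) and Gm14296 by 0.19 (adjusted p = 0.00286). Trend removal left 1 member higher and 11 lower, with a median of -0.25 and Gm14419 at -0.75. Zfp951, a zinc finger gene on chromosome 5, was lower by 0.34 against WT vehicle (adjusted p = 0.00413) and by 0.54 against WT lithium (adjusted p = 0.00318); against WT vehicle it was at -0.56 after trend removal.

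Of the higher genes, Itih3, which encodes a heavy chain of the inter-alpha-trypsin inhibitors that bind hyaluronan, ran from 359 to 542 in HT lithium (median 407) and from 245 to 443 in WT vehicle (median 326). The ranges overlapped, with 3 HT lithium libraries above all WT vehicle libraries, and the difference was 0.33 ± 0.103 (SE, adjusted p = 0.00642). All 10 lay above the WT lithium libraries, by 0.53 (adjusted p = 0.00474). Gli1, the transcription factor that serves as a readout of Hedgehog signalling, ran from 44.9 to 110 in HT lithium (median 71.8) and from 34.7 to 74.4 in WT vehicle (median 52.5). Its ranges overlapped too, at 0.40 ± 0.141 (SE, adjusted p = 0.0137), and the difference from WT lithium, 0.48, did not pass the test (adjusted p = 0.0926). Against WT vehicle it was at 0.69 after trend removal.

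A few of the 19 were lower in WT lithium as well, so their place among the genes left does not separate genotype from lithium. Palm3, a paralemmin family gene, was lower by 0.67 in HT lithium (adjusted p = 1.22e-07) and by 0.54 in WT lithium (adjusted p = 1.03e-05), and HT lithium and WT lithium differed by -0.14 (adjusted p = 0.556). Pcdhb5, a clustered protocadherin that gives neurons a surface identity, was at -0.38 (adjusted p = 2.32e-06), -0.25 (adjusted p = 0.000994) and -0.13 (adjusted p = 0.368) in the same order. Ablim1, which encodes an actin-binding LIM protein, was at -0.25 (adjusted p = 4.47e-12), -0.22 (adjusted p = 1.49e-10) and -0.03 (adjusted p = 0.611), the first of which was -0.13 after trend removal.

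Of the 69 genes called between HT lithium and WT lithium, 30 were higher and 39 lower, and 12 were among the 19 described. Trim71, which encodes an RNA-binding ubiquitin ligase known from early development, showed another pattern. It ran from 22.0 to 49.1 in HT lithium (median 30.4), from 25.4 to 35.3 in WT vehicle (median 32.5) and from 13 to 24.1 in WT lithium (median 20.1). HT lithium thus lay with WT vehicle (0.02, adjusted p = 0.881), and WT lithium below it by 0.67 in log2 units (adjusted p = 1.73e-06). HT vehicle, at 30.6 to 51.2 (median 42.7), was not called against WT vehicle (0.42, adjusted p = 0.207), and HT lithium exceeded WT lithium by 0.70 (adjusted p = 0.00034). Trim71 was at 0.28 (adjusted p = 0.0485) against WT vehicle when the GC and length trend was removed. Pcdha12, another clustered protocadherin, was at -0.63 against WT vehicle (adjusted p = 3.05e-09) and at -0.39 against WT lithium (adjusted p = 0.00741).

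Gskip and Arid3a were named because they were among the 10 smallest interaction p-values, none of which passed (adjusted p = 0.832 for both). Gskip, which encodes a protein that binds and inhibits GSK3, was at 0.14 against WT vehicle (adjusted p = 0.00137) and 0.31 in WT lithium (adjusted p = 5.6e-10). Arid3a, a DNA-binding factor gene, was at -0.30 (adjusted p = 2.53e-06) and -0.53 (adjusted p = 1.69e-12). Neither kept its call against WT vehicle after removal of the GC and length trend (Gskip 0.06, adjusted p = 0.252; Arid3a -0.10, adjusted p = 0.121).

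A second reading used genes altered by genotype in libraries that stand on neither side of the comparison. In fluoxetine males 287 genes (1.60%) differed by genotype, 144 higher and 143 lower in HT, with the count at 70, 141 and 148 without HT fluoxetine male 2, 4 or 1 and at 105, 149 and 189 without WT fluoxetine male 3, 4 or 2. Of these 287 genes, 231 were called in the same direction in HT lithium minus WT vehicle, 7 in the opposite direction and 49 not at all. Over all genes 26.6% were higher and 25.5% lower in that comparison (52.0% either way). By the rule for genes left and back, 231 were left, 5 were back, 7 had passed to the other side and 44 met no definition. Left is here only the name of the rule's class, since 8 of the 287 were called between HT vehicle and WT vehicle, beside 0.106% of all genes. Further, 201 were called in the same direction (14 in the opposite) between HT lithium and HT vehicle, beside 50.6% of all genes called either way. The same 287 genes gave 198 in the same direction and 14 in the opposite direction in WT lithium minus WT vehicle, a comparison without heterozygotes. There 52.9% of all genes were called either way. In HT lithium minus WT lithium 14 were called in the same direction and 0 in the opposite, beside 0.386% of all genes, and 162 of 287 had the same sign.

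The 287 genes held cytosolic ribosomal protein genes among those with the smallest p, such as Rpl17 and Rps24, which were higher in HT lithium than in WT vehicle by 0.34 (adjusted p = 7.22e-08) and 0.35 (adjusted p = 6.72e-10). Pygm, the muscle form of glycogen phosphorylase, which astrocytes also use, was lower by 0.61 (adjusted p = 1.51e-15). Chchd1, a protein of the mitochondrial ribosome, was higher by 0.60 (adjusted p = 2.75e-14). Removal of the GC and length trend left 166 of the 287 called in the same direction, beside 6311 of 17880 genes called either way. Rpl17 was then at 0.11 (adjusted p = 0.0513), Rps24 at 0.23 and Chchd1 at 0.26. HT fluoxetine males had GC slopes of -0.00249 to 0.149 and WT fluoxetine males of 0.0817 to 0.169; the part of these measures in the overlap was not tested.

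Immediate early genes had the lowest median of the 19 lists described. Of 36 tested, 23 were lower and 6 higher in HT lithium than in WT vehicle, beside 25.5% and 26.6% of all genes. Their median was -0.49 beside 0.02 over all genes. Arc, which encodes a protein that governs AMPA receptor removal at active synapses, ran from 769.6 to 3407 in HT lithium (median 1397) and from 4862 to 8633 in WT vehicle (median 6331). Every HT lithium library lay below every WT vehicle library, and the difference was -2.07 ± 0.244 (SE, adjusted p = 3.84e-10). HT vehicle libraries were spread from 1493 to 8742 (median 5847), and WT lithium libraries lay at 1054 to 2740 (median 1587). Fos ran from 273 to 856 in HT lithium (median 425) and from 793 to 1977 in WT vehicle (median 1036), with 9 of 10 HT lithium libraries below all WT vehicle libraries (-1.37 ± 0.200, SE, adjusted p = 6.91e-08).

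The transcription factor genes Junb (-1.09), Egr1 (-1.0), Nr4a1 (-1.05) and Klf10 (-1.07), the kinase gene Sik1 (-1.10) and the clock gene Per1 (-0.79) were also lower. Rheb, which activates the mTOR complex, was higher by 0.24. No member of this list differed by genotype under vehicle or under lithium, where 0.106% and 0.386% of all genes were called. WT lithium against WT vehicle gave 24 lower and 6 higher, beside 52.9% of all genes called either way. After removal of the GC and length trend 21 were lower and 4 higher, with a median of -0.42; Per1 was at -0.47 and Rheb at 0.15.

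**Figure D4:**
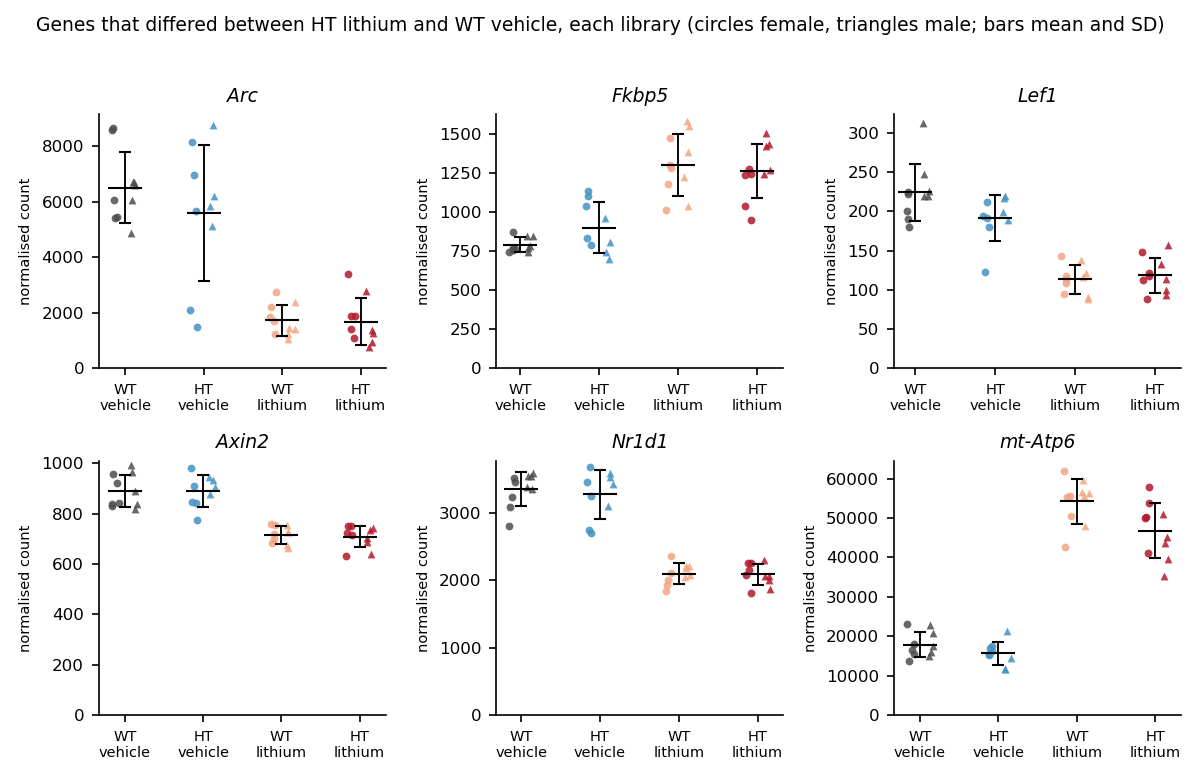
Normalised counts of 6 genes that differed between HT lithium and WT vehicle, in each library of 4 groups (circles female, triangles male), with mean and SD. In all 6 the HT lithium libraries share no value with WT vehicle and lie within or near the WT lithium range.

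Of 22 tested targets of Wnt signalling, 11 were lower, 0 higher and 11 not called, with a median of -0.25, beside 25.5% of all genes lower. Stabilised beta-catenin activates these genes together with LEF and TCF factors. Lef1, which encodes 1 of these factors, ran from 88.3 to 157 in HT lithium (median 116) and from 180 to 312 in WT vehicle (median 221), without overlap (-0.92 ± 0.10, SE, adjusted p = 4.52e-11). Axin2, a target that feeds back on the destruction complex, ran from 633 to 751 in HT lithium (median 719) and from 816 to 991 in WT vehicle (median 866). Its ranges did not overlap either, at -0.33 ± 0.040 (SE, adjusted p = 1.27e-09). Nkd1, a feedback inhibitor, was at -0.63. With the trend removed 7 were lower and 0 higher with a median of -0.13, and Axin2 was at -0.15 (adjusted p = 0.00281).

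The genes of GSK3 and the beta-catenin destruction complex were lower in 13 of 23 and higher in 1 (median -0.12), beside 25.5% and 26.6% of all genes. Several of these calls depended on the GC and length trend. Gsk3a and Gsk3b, the genes of the 2 kinases that lithium inhibits, were at -0.20 (adjusted p = 1.7e-07) and -0.19 (adjusted p = 0.000612); they were named after their values were seen. Apc2 was at -0.45, Lrp5, a Wnt co-receptor gene, at -0.55, and Akt1, a kinase that phosphorylates GSK3, at -0.25. Its removal ended the calls of Gsk3a (-0.01), Apc2 (-0.02) and Akt1 (-0.03) and kept those of Gsk3b (-0.15, adjusted p = 0.00332) and Lrp5 (-0.27), with 6 of the 23 then lower and 2 higher.

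Of 52 enzymes of inositol recycling and phosphoinositide turnover, 9 were higher and 23 lower (median -0.09), beside 26.6% and 25.5% of all genes. Impa1, the inositol monophosphatase that lithium inhibits, was higher by 0.19 (adjusted p = 2.26e-09) and at 0.11 after trend removal. Isyna1, which makes inositol from glucose 6-phosphate, was lower by 0.33 (adjusted p = 5.23e-05) and at -0.15 after trend removal. Both were named after their values were seen. The kinase gene Itpkb was at -0.47 and the phosphatase gene Inpp4a at -0.25, with -0.19 and -0.15 after trend removal, when 10 members were higher and 15 lower.

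Clock and stress-hormone genes followed. Of 19 core circadian clock genes 12 were lower and 2 higher (median -0.30), beside 25.5% and 26.6% of all genes. Nr1d1, the repressor REV-ERB alpha of the clock, ran from 1814 to 2303 in HT lithium (median 2070.5) and from 2803 to 3584 in WT vehicle (median 3417), without overlap (-0.68 ± 0.047, SE, adjusted p = 3.78e-17). Cry2, another repressor, was at -0.33, and at -0.13 after trend removal. The time of day at which tissue was taken is not in the labels. Of 20 glucocorticoid response genes 9 were higher and 2 lower (median 0.15), beside 26.6% and 25.5% of all genes. Fkbp5, a co-chaperone of the glucocorticoid receptor and a standard readout of it, ran from 949 to 1508 in HT lithium (median 1259) and from 745 to 872 in WT vehicle (median 771). All HT lithium libraries were above all WT vehicle libraries (0.67 ± 0.086, SE, adjusted p = 4.12e-09). Sult1a1, a sulfotransferase gene, was higher by 0.99. Trend removal left 10 members of this list higher and 5 lower. Per1 is also in this list and in the clock list and was lower.

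Cholesterol synthesis genes were lower in 12 of 25 and higher in 5, beside 25.5% and 26.6% of all genes. Srebf2, which encodes the transcription factor that drives the pathway, was at -0.37 and the enzyme gene Mvd at -0.58, with -0.07 and -0.43 after trend removal, when 10 were lower and 3 higher. The unfolded protein response list had 9 of 23 higher and 5 lower (median 0.09), beside 26.6% and 25.5% of all genes. After trend removal 5 were higher and 6 lower, with a median of -0.02, beside 2816 higher and 3495 lower of 17880 genes. Its chaperone genes differed in sign, with Hyou1 at -0.37 (-0.24 after trend removal) and Dnajc3 at 0.26.

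Of 13 mitochondrially encoded genes tested 10 were higher and 0 lower (median 0.36), beside 26.6% of all genes higher. mt-Atp6, a subunit of ATP synthase, ran from 35291 to 57767 in HT lithium (median 47649) and from 13755 to 22979 in WT vehicle (median 17041). The groups were wide apart, at 1.39 ± 0.105 (SE, adjusted p = 6e-16), a fold of 2.63, and at 0.84 after trend removal. WT lithium libraries were at 42531 to 61975 and HT vehicle libraries at 11620 to 21324. mt-Nd1, at 0.42, and mt-Nd3, at 0.87, both encode complex I subunits. They lost their calls after trend removal, at -0.04 (adjusted p = 0.631) and 0.13 (adjusted p = 0.635), when 1 mitochondrially encoded gene was higher and 2 lower.

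Of 92 nuclear respiratory chain genes 65 were higher and 10 lower, of 80 cytosolic ribosomal protein genes 59 and 3, and of 78 mitochondrial ribosomal protein genes 58 and 4. Over all genes 26.6% were higher and 25.5% lower. The medians of these lists were 0.24, 0.27 and 0.18. Without the trend the counts were 33 and 16, 40 and 11, and 30 and 7. Atp5mpl, a small subunit of ATP synthase, was at 0.52, Rpl22l1, a paralogue of a large-subunit protein, at 0.61, and Rpl34 at 0.45; after trend removal they were at 0.33, 0.38 and 0.45. Ndufa4, a respiratory chain gene at 0.42, and Mrps18c, a mitochondrial ribosomal gene at 0.42, both fell to 0.05 and lost their calls. Lars2, the mitochondrial leucyl-tRNA synthetase gene, was among the largest increases at 1.32 (adjusted p = 2.12e-06), as was Ndst4, a heparan sulfate enzyme gene, at 1.47 (adjusted p = 0.0452). The call for Ndst4 was lost after trend removal (1.37, adjusted p = 0.0760), in edgeR (adjusted p = 0.0966), in DESeq2 (adjusted p = 0.114) and without any 1 of 15 libraries. Copies of mitochondrial genes in the nuclear genome and ribosomal pseudogenes also stood among the largest increases and share sequence with their parent genes, so they are not named.

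Of 38 postsynaptic scaffold and adhesion genes 25 were lower and 2 higher (median -0.28), and of 37 presynaptic release genes 28 and 1 (median -0.25), beside 25.5% of all genes lower. Nlgn3 and Nrxn2, a neuroligin and a neurexin gene that join the 2 sides of a synapse, were at -0.32 and -0.47. Syn1, which encodes the vesicle protein synapsin, was at -0.38 and Rims1, an active zone scaffold gene, at -0.49. Trend removal left 12 postsynaptic genes lower and 0 higher, and 17 presynaptic genes lower and 0 higher. Rims1 was then at -0.44, Nlgn3 at -0.20, Syn1 at -0.17 and Nrxn2 at -0.06 (adjusted p = 0.0602), the last no longer called.

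The clustered protocadherins, of which Pcdhb5 and Pcdha12 have been described, were lower in 28 of 55 members and higher in 1 (median -0.23). The shares of all genes were 25.5% and 26.6%. Pcdhgc5 was at -0.47 and Pcdhgb1 at -0.63. Between HT lithium and WT lithium 1 member was lower and 0 higher, beside 0.386% of all genes called. Between WT lithium and WT vehicle 27 were lower and 0 higher, beside 52.9% of all genes called either way. With the trend removed 30 were lower and 1 higher, with Pcdhgc5 at -0.24. The alpha genes share their last exons, as do the gamma genes, so reads may be divided among them.

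**Figure D5:**
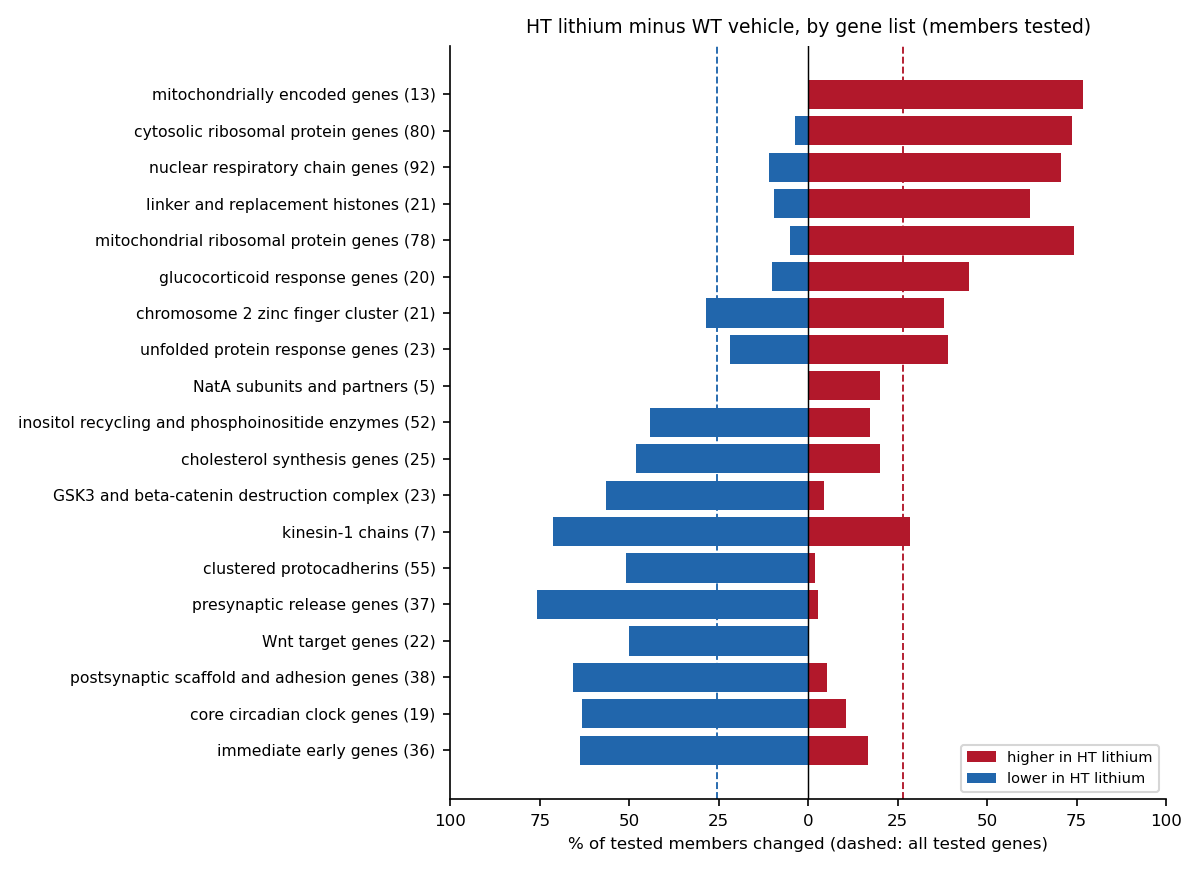
Share of tested members of 19 gene lists that were higher (red, to the right) or lower (blue, to the left) in HT lithium than in WT vehicle, in percent, with the number tested in brackets and dashed lines for all tested genes (26.6% higher, 25.5% lower). Mitochondrial and ribosomal lists lie to the right, and immediate early, clock, synaptic and Wnt target lists to the left.

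Markers of cell types were read beside these groups. As 26.6% of all genes were higher and 25.5% lower, counts near those shares are no result about a cell type. Marker counts were not computed after trend removal. Excitatory neuron markers (12) had 1 higher and 6 lower, among them Rorb at -0.47, and their summed level was 60866 to 78400 in HT lithium and 66898 to 88674 in WT vehicle. Inhibitory neuron markers (12) had 2 higher and 4 lower, a median of -0.09, and sums of 45402 to 59032 and 52625 to 61479. Pvalb, against that median, was higher by 0.64. Astrocyte markers (12) had 1 higher and 6 lower, with Aldh1l1 at -0.37, and sums of 136522 to 178828 and 143244 to 194082. Oligodendrocyte markers (12) had 0 changed, with sums from 104284 to 169671 and from 49819 to 240530. Microglia markers (12) had 2 higher and 3 lower, with a median of 0.02 and Cx3cr1 at -0.40. Oligodendrocyte precursor markers (10) had 0 higher and 4 lower, with sums of 10227 to 13778 and 10891 to 16572.

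Vessel and meningeal markers came next. Endothelial markers (12) had 3 higher and 7 lower, Cdh5 at -0.57 and Ly6a at 0.56, so members of 1 cell type moved both ways. Pericyte and smooth muscle markers (10) had 0 higher and 7 lower, with Myh11 at -0.87 and sums of 6312 to 10275 in HT lithium and 6369 to 11691 in WT vehicle. Meningeal and fibroblast markers (12) had 1 higher and 6 lower, with Col1a1 at -0.96 and sums of 4142 to 7724 and 4458 to 10729.5. Hspg2, a basement membrane proteoglycan gene, was at -0.92. Red blood cell markers (6) had 3 higher and 0 lower, with sums of 17504 to 22061 and 14706 to 21053. Choroid plexus markers (7) had 0 higher and 1 lower. Striatal markers (12) had 1 higher and 0 lower, and their sums were 5641 to 20195 in WT vehicle and 5524 to 8876 in HT lithium. Olfactory bulb markers (12) had 1 higher and 1 lower, and the highest sums were far above the medians on both sides (11111 to 36382 in HT lithium and 10831 to 33286 in WT vehicle). After trend removal Pvalb was at 0.42, Aldh1l1 at -0.20, Ly6a at 0.31, Col1a1 at -0.62 and Hspg2 at -0.48. No marker was at 0 in all libraries, the ranges of the sums overlapped in each of these lists, and the part of these markers in the results was not tested.

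By sex, females gave 6488 genes (36.3%) and males 7802 (43.6%) between HT lithium and WT vehicle, with 5 libraries on each side. A test of the difference between the sexes called 39 genes (0.218%), 11 with a higher and 28 with a lower difference in females. That count was 0 without HT lithium female 5, HT lithium male 5, WT vehicle female 1 or WT vehicle male 2 (2058 to 2560 genes at an unadjusted p under 0.05) and 257 without WT vehicle female 2, and 26 of the 59 libraries each moved it by over 1.5 times when left out. Kif5c was higher by 0.35 in females and by 0.17 in males, and Itih3 by 0.11 and 0.54; neither difference between the sexes was called (adjusted p = 0.151 and 0.299). Cdh5, which encodes the cadherin that joins endothelial cells, was called, at -0.28 in females and -0.85 in males (adjusted p = 0.0442). That call was lost without any 1 of 17 of the 59 libraries (adjusted p up to 0.117), without the HT fluoxetine females (adjusted p = 0.0562), without an intensity trend (adjusted p = 0.0541) and after trend removal (adjusted p = 0.0723).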

How the data were processed

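RNA of prefrontal cortex was sequenced with a stranded poly(A) kit, per the labels' protocols, and 1 deposited table of genes by 59 libraries was used. Its values are a normalised signal, estimated read counts that the authors divided by 1 size factor per library. Each value was a whole multiple of its library's step (100% within 0.01 read), so whole reads could be recovered. Per the submitters' processing notes, the build was GRCm38 and the tools included DESeq2 1.19.11, R 3.6.0 and Salmon 0.11.2, with no roles given. The gene filter and annotation release are not given in the sources used here. Read number sets the counting error alone. No replicates held near-identical counts, and 0 columns of values were left unmapped. Symbols and positions came from GENCODE M21 (18077 of 18088 identifiers).

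Values were tested as log2(value + 1) in limma-trend (R 4.3.3, limma 3.58.1), so fold changes of low genes are understated. It had 1 mean per genotype, treatment and sex over all 59 libraries, with equal weight of the sexes, two-sided, with Benjamini-Hochberg adjustment over the 17891 genes tested and a threshold of 0.05. Every adjusted p is from this fit unless another tool is named. Run on the whole reads, DESeq2 1.42.0 called 9238 genes between HT lithium and WT vehicle, and edgeR 4.0.16 called 9173. Library measures were compared with permutation tests of 100000 resamples. The fit was tested on simulated data for this comparison: with 200 of 17891 genes changed, 40.3% were recovered at a log2 change of 0.25, 67.2% at 0.5 and 90.9% at 1, with 5 false among 137 calls. The simulation changed far fewer genes than the 9308 called here and held no GC or length shift between libraries. Its rates therefore cannot be carried over to the real comparison. Other settings tried were pseudocount, filters, normalisation, trend and variance priors, sample sets, replicate block, GC and length corrections, and leaving out each library. Figures used Python 3.11.15 and matplotlib 3.10.9.

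Members and gene lists were chosen with earlier results of these data known. Named genes were the called genes with the 10 greatest rises and the 10 greatest falls, if no lower in level than the median gene, up to 3 of smallest p per list, all genes called by genotype under vehicle, up to 20 in fluoxetine males, the 10 of smallest p between HT lithium and WT lithium and in the interaction, and NatA genes. Not all of these are printed, some being not reported here, and others are said to be named after their values were seen. Upstream sequences came from RefSeq, which matched all 5 linker histone genes.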

Additional observations from a re-analysis of the deposited data

Results flagged for a closer look

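In 48 sets of 10 libraries looked at, 7 had a highest or lowest library set apart from the other 9 by more than the outlier threshold; chance alone gives about 1 in 20. WT vehicle female 1 held the highest Naa15 count of its group, 1970.6 beside 1699 for the next library, and also the lowest GC slope, -0.0627 beside 0.0799. HT lithium female 5 held the highest Kif5b count, 8185 beside 7146, and the lowest 2410018L13Rik count, 43.6 beside 61.9. HT lithium male 5 held the lowest counts of 2 zinc finger genes of the chromosome 2 cluster, Gm14295 at 457 beside 558 and Gm14418 at 81.3 beside 123. WT vehicle male 2 held the highest Lef1 count, 312 beside 248. The difference between HT lithium and WT vehicle in Cdh5 was higher in females than in males by 0.57 on the log2 scale (adjusted p = 0.0442 for the difference, limma), at -0.28 and -0.85. That call was lost without any 1 of 17 of the 59 libraries, with adjusted p of 0.0134 to 0.117 over all 59, and in 3 of 15 other alternatives; limma called 0 genes for this difference, with 2058 to 2560 at an unadjusted p under 0.05, without HT lithium female 5, HT lithium male 5, WT vehicle female 1 or WT vehicle male 2.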

How the results depend on the processing

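Between HT lithium and WT vehicle, the count of genes changed kept within 1.5 times of 9308 in all alternatives but 1, and with each library left out it was 9039 to 9468. The GC slopes of the HT lithium and WT vehicle libraries did not overlap. Using each library's GC and length slopes as covariates changed most results, and the cause of these changes was not tested. It gave 2150 genes in that comparison (1145 in females, 2741 in males, 1304 for their difference), 1748 for WT lithium minus WT vehicle, 1609 for HT lithium minus HT vehicle, 32 for HT vehicle minus WT vehicle, 144 for HT lithium minus WT lithium and 1154 for genotype in fluoxetine males. It left 5 of the 19 and 78 of the 287 genes altered by genotype called in their direction in HT lithium minus WT vehicle.

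With the GC and length trend removed, the counts were 6244 for WT lithium minus WT vehicle, 5164 for HT lithium minus HT vehicle, 3352 in females, 4806 in males and 9 for the difference between the sexes. That last count was also 3 without the HT fluoxetine females, 20 without an intensity trend, 22 after quantile normalisation, 18 after median centring, 72 at a mean of at least 100, 116 in edgeR and 267 in DESeq2. DESeq2 gave 30 genes for HT vehicle minus WT vehicle, 247 for HT lithium minus WT lithium (edgeR 109) and 2 for the interaction. A mean of at least 100, which leaves fewer genes tested, gave 7 for HT vehicle minus WT vehicle, 8 and 7 of the 19 genes called in HT lithium minus WT vehicle and minus WT lithium, and 9 of the 287 in the latter.

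Medians of gene lists in HT lithium minus WT vehicle, with the trend removed and then with the slopes as covariates, were -0.13 and -0.40 for Wnt targets, -0.0295 and 0.00573 for GSK3 and the destruction complex, -0.0303 and 0.0244 for inositol enzymes, -0.17 and -0.14 for clock genes, -0.0558 and -0.48 for mitochondrially encoded genes, 0.0456 and 0.12 for nuclear respiratory genes, 0.11 and 0.0516 for cytosolic and 0.0560 and 0.0896 for mitochondrial ribosomal genes, -0.0542 and -0.14 for postsynaptic and -0.13 and 0.0657 for presynaptic genes, 0.0930 and 0.0676 for histones, -0.0399 and 0.37 for kinesin-1, 0.00706 and -0.14 for NatA, and -0.25 and -0.25 for the zinc finger cluster. The trend removal moved unfolded protein response genes to -0.0205. The slopes moved immediate early genes to -0.21, glucocorticoid genes to 0.42, cholesterol genes to 0.0101 and protocadherins to 0.0846. Quantile normalisation gave -0.0892 for GSK3, -0.0459 for inositol, -0.16 for postsynaptic, -0.16 for presynaptic and -0.15 for kinesin-1 genes.

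Named genes were reversed only under these 2 corrections: with the trend removed Naa50 (-0.0443), Gm14418 (-0.41) and mt-Nd1 (-0.0407), and with the slopes Naa50 (-0.22), 9030624G23Rik (0.0449), Rpl17 (-0.0759), Arid3a (0.00822), Gskip (-0.0861), Gsk3b (0.00573), mt-Nd1 (-0.40), mt-Nd3 (-1.32), Pcdhgc5 (0.0156) and Klc2 (0.00874). With the trend removed, 72 of the 92 genes looked at kept direction and call, and with the slopes 34. The median over all tested genes lay between -0.00389 and 0.0340 in every scaling, so no scaling shifted it by over 0.1.

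Leaving out each library gave 8676 to 9161 genes for HT lithium minus HT vehicle, 9088 to 9526 for WT lithium minus WT vehicle, 36 to 185 for HT lithium minus WT lithium, 10 to 29 for HT vehicle minus WT vehicle, 70 to 336 in fluoxetine males, 5678 to 6610 in females, 6891 to 7962 in males and 0 to 257 for the sexes' difference. Naa15 was called without HT lithium male 4 (adjusted p = 0.0419) or WT vehicle female 1 (adjusted p = 0.00946). Naa16 was called without any 1 of 5 libraries (adjusted p = 0.0166 to 0.0470).

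The replicate numbers pair no animals by the labels. Over 10 same-numbered pairs the mean correlation of deviations was 0.0103 (range -0.120 to 0.0916), and 3 libraries correlated best with their own number. With the replicate block, HT lithium minus WT vehicle gave 9317 genes, HT lithium minus WT lithium 87, and no gene named here changed its call in the former. At 25.0 M reads or more per library, counting error is small for all but the lowest genes, such as Gm49769.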
